A study of Mus musculus with 9 samples.

Results

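The clustered histone genes of mouse embryonic stem (ES) cells were examined in 9 RNA-seq libraries, and 68 of the 24411 genes in the deposited tables belonged to them. Members were taken by name, as every gene whose symbol starts with Hist1h, Hist2h, Hist3h or Hist4h. They comprised 6 genes for the linker histone H1, 18 for H2A, 19 for H2B, 12 for H3 and 13 for H4. The study asked how the transcriptome of ES cells differs when Zfp352, or Zfp352 together with Zfp353, is deleted. All cells were of the EB5 line, a male line made from E14tg2a ES cells of strain 129Ola that carries an IRES-BSD insertion (blasticidin resistance) in 1 Oct3/4 allele. They were grown with fetal calf serum and leukemia inhibitory factor on gelatin. The 3 genotypes, with 3 libraries each, were Parental (unedited EB5), Zfp352-KO (Zfp352 deleted with CRISPR-Cas9, the single knockout) and Zfp352/Zfp353-DKO (both genes deleted with CRISPR-Cas9, the double knockout). The labels do not say whether each library had its own culture or how many edited clones were used, so the p-values cover no more than library-to-library spread.

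DNA in chromatin is wound around an octamer of H2A, H2B, H3 and H4, and H1 binds the linker between octamers. The clustered genes supply these proteins while DNA is being copied. Their mRNAs have no introns in most cases and usually end in a short stem-loop instead of a poly(A) tail. The stem-loop is bound by SLBP, and the U7 snRNP directs the cut that follows it. Replacement variants such as H2A.Z and H3.3 are encoded elsewhere by genes whose mRNAs are polyadenylated and made through the whole cell cycle. The libraries were made with a kit that selects polyadenylated mRNA, so the values describe the clustered-gene RNA that passed this selection. Less RNA per cell, fewer cells with it and less of it carrying a tail cannot be told apart.

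The stem-loops are shown because they separate the H4 genes from the other types. A 16-base stem-loop of the form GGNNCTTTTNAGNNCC was searched on the transcript strand of GENCODE M21 (GRCm38) transcripts, and 44 of the 68 members held it (64.7%), against 124 of all 141767 transcripts (0.0875%). Capitals mark the stem-loop and lower case the flanking bases, 5′ to 3′, in the DNA alphabet. The first 3 shown are the most abundant H2A, H2B and H4 members that hold it, and Hist1h3d is the member called between Parental and double-knockout cells.
Hist1h2ap: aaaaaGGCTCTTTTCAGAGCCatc
Hist1h2bk: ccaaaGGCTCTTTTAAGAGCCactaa
Hist1h4i: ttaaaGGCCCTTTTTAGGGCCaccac
Hist1h3d: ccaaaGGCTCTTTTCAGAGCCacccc
The form seen in Hist1h2ap and Hist1h3d was present in 26 members, namely 3 of H1, 10 of H2A, 8 of H2B and 5 of H3. The form in Hist1h2bk, which differs from it by C10A (positions counted from 1 at the 5′ end of the stem-loop), was present in 6 members of H1, H2B and H3. The 11 H4 members with a stem-loop all carried T4C and A13G, a changed base pair of the stem, and no member of another type did. Of these 11, 7 had no further change, 2 (Hist1h4i and Hist2h4) also carried C10T, and 2 (Hist1h4b and Hist1h4j) also carried C3T and G14A. Hist2h2ac carried C10T alone. A match is a description of the letters, not of use. A gene without a match may hold another form, or its GENCODE model may stop before the stem-loop. Among genes without a match, Hist1h2ai (393 bases, against 448 deposited) and Hist1h3h (411 against 488) have GENCODE models shorter than the deposited ones.

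The transcript models ran on past the stem-loop in as many genes as they stopped near it. In 22 members the GENCODE transcript ended within 100 bases of the stem-loop, in 22 it continued for 100 bases or more, and in 24 the motif was not found. A poly(A) signal (AATAAA or ATTAAA in the last 40 bases of any GENCODE transcript of the gene) was present in 2, 11 and 4 members of these 3 classes. Where a gene has 2 transcripts, as Hist1h2bp of the first class does, the signal need not lie on the one with the stem-loop. The summed level in TPM (transcript abundance corrected for transcript length and depth) was 140.3 for the first class, 90.7 for the second and 94.7 for the third, averaged over 9 libraries. The class with short models had the highest sum. The deposited TPM was not computed on these transcripts: in 26 of the 68 members the GENCODE transcript was at least 100 bases longer than the deposited one. Reads past the deposited end are not in these values, so the sums do not measure how much RNA runs on past the stem-loop. By genotype, its sum was 151.8 ± 14.7 TPM in Parental, 127.8 ± 13.6 in the single knockout and 141.4 ± 6.02 in the double knockout (SD, n = 3 each), and the long-model class had 91.3 ± 7.37, 96.2 ± 0.86 and 84.6 ± 7.31 TPM. The 2 classes did not share an order of genotypes, and no test was made of these sums.

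The members lie in 4 loci (coordinates of GRCm38, 1-based). Hist1, on chromosome 13 from 21715711 to 23934913, held 54 members and 91.4% of the summed member TPM. Hist2, on chromosome 3 from 96219885 to 96270192, held 10 members, Hist3 on chromosome 11 held 3, and Hist4 on chromosome 6 held Hist4h4 alone. These 3 smaller loci gave 4.1%, 3.7% and 0.8% of the summed member TPM.

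Depth was 16599004 to 22044820 expected counts per library. Zfp352, the deleted gene, had 47, 52 and 41 counts in Parental, 3, 8 and 10 in single-knockout and 1, 1 and 3 in double-knockout libraries, in the order of the labels. Zfp353 was not analysed here. The ES cell genes Pou5f1, Sox2 and Nanog were abundant in every library, with means of 1143, 384.6 and 412.2 TPM. Markers of other cell types were also present, and more of them were lower than higher in the edited cells: 8 of 16 tested fibroblast markers were lower in the single knockout and 8 in the double knockout, and 1 was higher in the single knockout. Their summed level was 616.4 to 655.9 TPM in Parental, 553.9 to 610.3 in single-knockout and 504.9 to 554.6 in double-knockout libraries, with 1 of 18 under 0.1 TPM. Trophectoderm markers had 5 of 13 lower and 0 higher in each edited genotype. Endoderm markers had 3 and 4 of 12 lower, and 1, Lama1, was higher in the double knockout. Of 6 tested neural markers 1 was lower in each. Of 12 ES markers 3 were higher in the single knockout and 4, Sox2 among them, in the double knockout, and 0 were lower in either. Over all tested genes, 3.43% were called higher and 3.64% lower in the single knockout, and 3.65% and 4.82% in the double knockout. The part of these cell-type differences in the histone values was not tested.

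Clustered histone RNA was scarce in these poly(A)-selected libraries. The 68 members together took 68.24 to 82.66 CPM (expected counts scaled to the library total), and 0.0301% to 0.0356% of TPM. The summed level ran from 300.7 to 356.1 TPM per library, whereas H2afz, the H2A.Z gene, alone had a mean of 1328 TPM. H3f3a and H3f3b, which encode H3.3, had 728.7 and 652.5 TPM. The replacement-variant genes together were 9.84 to 12.4 times the summed members in every library. The libraries were selected for poly(A) tails, which clustered-gene mRNAs usually lack. These comparisons therefore do not give the relative RNA levels in the cells. Counts were above 0 in all 9 libraries for 50 members and in some libraries for 15. The other 3, Hist1h4m, Hist2h2aa2 and Hist2h3c1, were listed at 0 throughout. These 3 share most of their sequence with another gene, so reads from them could have been assigned to the copy.

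A few genes made up much of this RNA. Hist1h2ap, an H2A gene on chromosome 13 from 21833024 to 21833475, had the highest mean, 32.7 ± 5.45 TPM (SD over 9 libraries). It was followed by Hist1h2bc (H2B, 26.9 TPM), Hist1h4i (H4, 22 TPM), Hist1h2ai (H2A, 20.7 TPM), Hist1h2bk (H2B, 17.9 TPM) and Hist1h3c (H3, 15.5 TPM). These first 6 gave 41.6% of the summed TPM, and 19 members had a mean under 1 TPM. The median member had 2.64 TPM, against 4.53 TPM for all genes with a count in any library. Neighbours in this order overlapped across libraries: Hist1h2ap ran from 23.0 to 41.0 TPM and Hist1h2bc from 19.6 to 34.4. The order of the first 6 is therefore not firm.

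**Figure D1:**
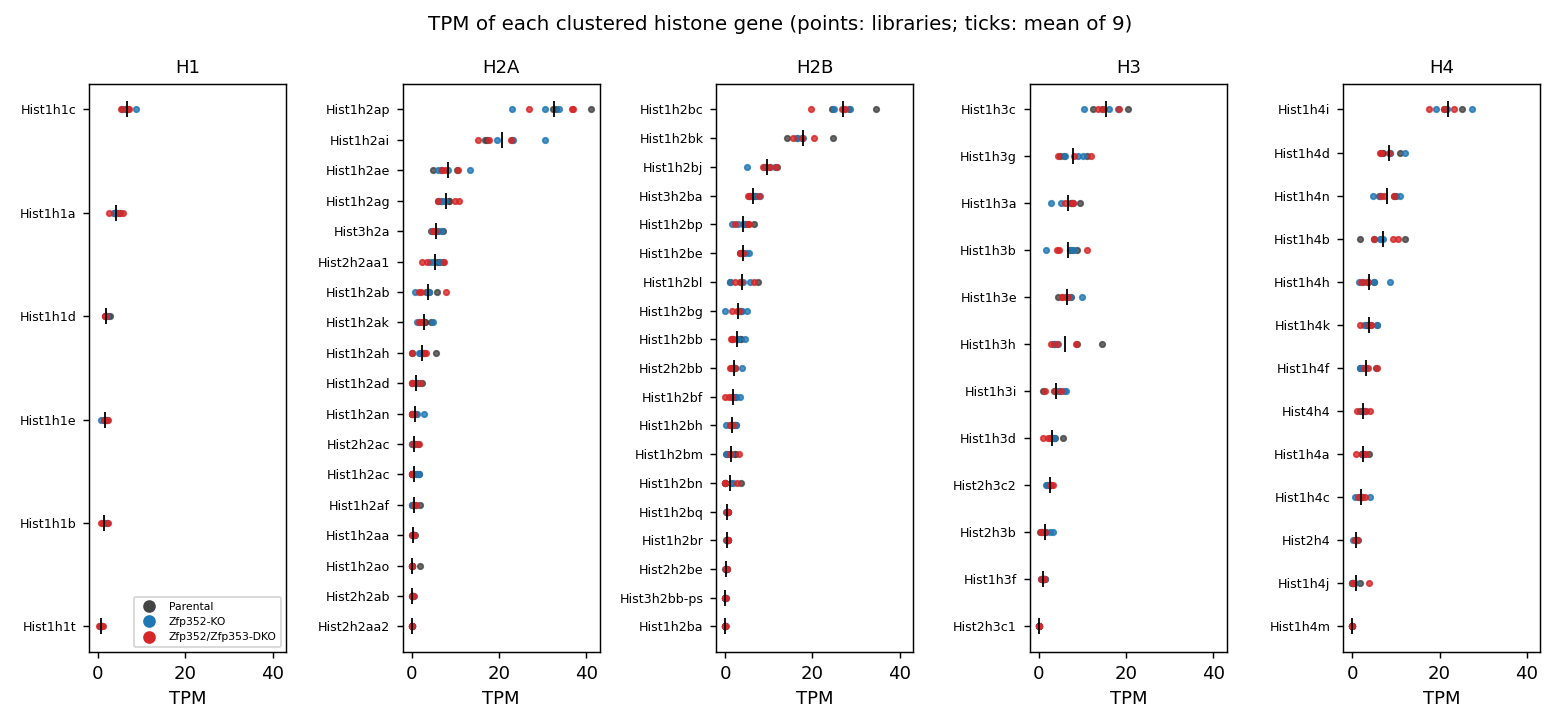
TPM of each of the 68 clustered histone genes (horizontal axis), in 5 panels by histone type, with 1 point per library coloured by genotype and a tick at the mean of 9. Each type is led by 1 to 3 genes, such as Hist1h2ap at 32.7 and Hist1h4i at 22 TPM, with the colours mixed along most rows. In the Hist1h3d row all double-knockout points lie below all others.

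Values of single members carry the uncertainty of shared reads. A read of 75 bases cannot be assigned to 1 gene where copies are identical, and the expected counts divide it by estimate. Of the member values, 74.7% were not whole numbers, against 9.27% of all values in the tables. The summed count of a type, in contrast, was whole (within 0.05) in all 9 libraries for H1, H2B, H3 and H4, so that the division took place within these types. For H2A it was whole in 1 of 9 libraries. The median member shared 68% of its 75-base windows with another gene among H2A genes, 59.0% among H3, 36.9% among H2B, 24.6% among H4 and 0.8% among H1. Hist1h2bq and Hist1h2br held identical values in every library. The windows were those of GENCODE transcripts, which in 26 members were at least 100 bases longer than the deposited ones. By this measure H1 genes were the best resolved, and sums by type are more reliable than single H2A or H3 genes. For H1, 4 of the 6 GENCODE models were at least 100 bases longer, and 50% of the values were not whole numbers.

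Sharing and spread could be compared within genotypes. For the 18 tested members that share over 50% of their windows, the median coefficient of variation between libraries of a genotype was 26.8%, where counting alone would give 19.5%. For the 19 that share over 20% and up to 50% it was 31.5% against 25%, and for the 11 that share at most 20% it was 24.1% against 25.9%. In these groups 15 of 18, 15 of 19 and 7 of 11 exceeded their counting value. The coefficient itself was highest in the middle group, whereas its excess over counting rose from the least to the most shared group. Median counts also differed, at 14.9, 16 and 26.2 from the least to the most shared group. The median spread of the least shared group was thus close to counting error, though 7 of its 11 members exceeded it. The groups rest on GENCODE windows, not on the counted models. Hist1h2be, in the least shared group, has 2506 bases in GENCODE and 616.1 deposited, and 100% of its values were not whole. Sharing over the counted bases was not measured, so some members may belong to another group.

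Core histone sums lay near the Parental level in the edited cells, with the means of H2A, H2B and H3 below it in both edited genotypes. H2A genes, which encode the outer subunit that pairs with H2B, summed to 94.2, 91.6 and 109.4 TPM in Parental, 91.6, 93.0 and 95.3 in single-knockout and 88.3, 91.7 and 90.3 in double-knockout libraries. Parental 3 stood above the rest, and the groups overlapped in TPM. In CPM scaled with TMM factors neither edited group overlapped Parental. H2A then summed to 21.2, 21.2 and 24.4 CPM in Parental libraries, against 20, 20.2 and 21 with Zfp352 deleted and 20.1, 20.2 and 19.0 with both genes deleted. The log2 ratios of the CPM means to Parental were -0.13 and -0.17, beside -0.08 and -0.13 in TPM (pooled SD 0.10). H2B genes summed to 93.8, 91.0 and 97.2 TPM in Parental, 81.3, 85.1 and 95 in single-knockout and 77, 85.6 and 87.7 in double-knockout libraries. All 3 double-knockout libraries lay below all 3 Parental ones, with a log2 ratio of means of -0.17 in TPM beside a pooled SD of 0.08, and of -0.11 in CPM.

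H3 genes, whose product forms the inner tetramer with H4, summed to 64.3, 64.3 and 69.4 TPM in Parental libraries. They summed to 56.0, 62.9 and 62.5 TPM in single-knockout and 65.3, 55.6 and 56.1 TPM in double-knockout libraries. The Zfp352-KO libraries lay below all Parental ones, with a log2 ratio of -0.13 in TPM (pooled SD 0.08) and -0.17 in CPM, while the double knockout overlapped Parental at -0.16 (pooled SD 0.10). H4 genes summed to 65.6 ± 2.77 TPM in Parental, 66.7 ± 8.87 in single-knockout and 63.6 ± 7.63 in double-knockout cells (SD, n = 3 each), and the groups overlapped. H1 genes summed to 16.5 ± 0.806, 16.8 ± 2.22 and 15.9 ± 2.65 TPM in the same order, and they overlapped too. In each genotype H2A had the highest mean and H2B the next. The H3 and H4 means were close in Parental, at 66.0 and 65.6 TPM, and their order there differed between libraries. In both edited genotypes H4 had the higher mean of these 2 types.

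**Figure D2:**
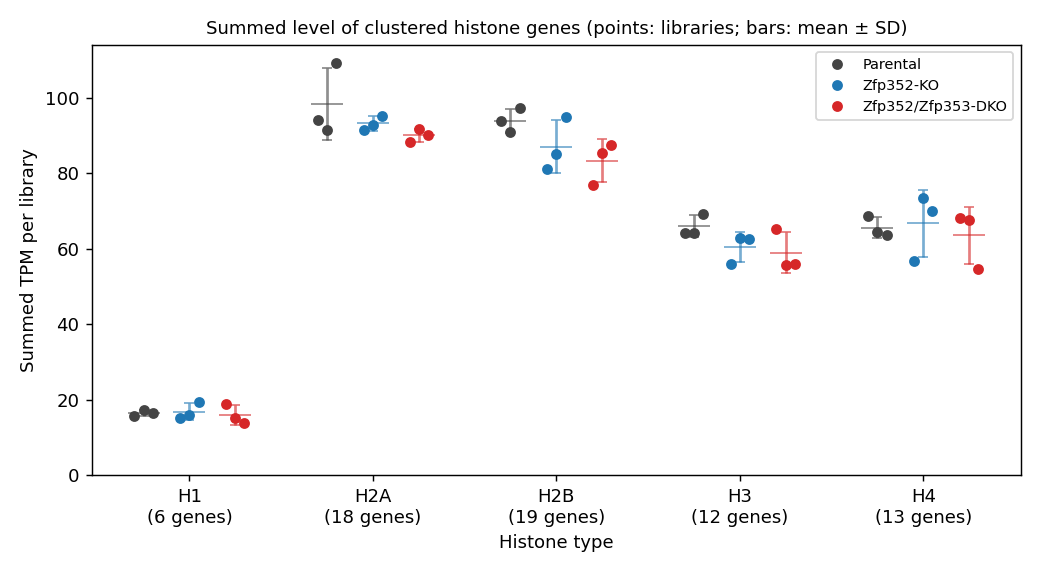
Summed TPM per library (vertical axis) of the clustered genes of each histone type, with 1 point per library, the mean as a horizontal bar and the SD as a vertical bar (n = 3). H2B in double-knockout libraries (77 to 87.7 TPM) and H3 in Zfp352-KO libraries (56.0 to 62.9 TPM) lie below every Parental library, and all other pairs with Parental overlap in TPM. In CPM, H2A in both edited genotypes also lies below every Parental library.

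Over all 68 genes the sum was 340.5 ± 14.1 TPM in Parental, 324.5 ± 21.5 in single-knockout and 312.1 ± 8.24 in double-knockout cells. The double-knockout libraries, at 302.6 to 317.9 TPM, lay below the lowest Parental library at 328.6 TPM, with a log2 ratio of -0.13. A length trend differed between the libraries as well. In each library, short transcripts as a class were somewhat high or low, and at the lengths of the tested members this length trend was 0.11, 0.14 and 0.02 (log2) in Parental libraries. It was -0.11, -0.05 and 0.03 in single-knockout and 0.04, 0.00 and -0.13 in double-knockout libraries. Within each edited genotype the sums had the same order as this trend. In Parental they did not: Parental 3 had the highest sum with the smallest trend of its group. For the sums, removing the trend was a setting added after seeing the data. In CPM, the log2 ratio over all 68 genes for the double knockout was -0.14 before and -0.02 after removal, and for Zfp352-KO -0.10 and 0.03. In the double knockout the ratio went from -0.11 to 0.00 for H2B, from -0.17 to -0.06 for H2A, from -0.19 to -0.07 for H3, from -0.08 to 0.03 for H4 and from -0.09 to 0.00 for H1. In Zfp352-KO it went from -0.10 to 0.02 for H2B, from -0.13 to 0.00 for H2A and from -0.17 to -0.04 for H3, but from -0.01 to 0.13 for H4 and from -0.02 to 0.09 for H1. Removal thus raised every ratio to Parental, towards 0 for H2A, H2B and H3 and away from it for H4 and H1 in Zfp352-KO. Whether the trend is the cause of the lower sums was not tested.

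**Figure D3:**
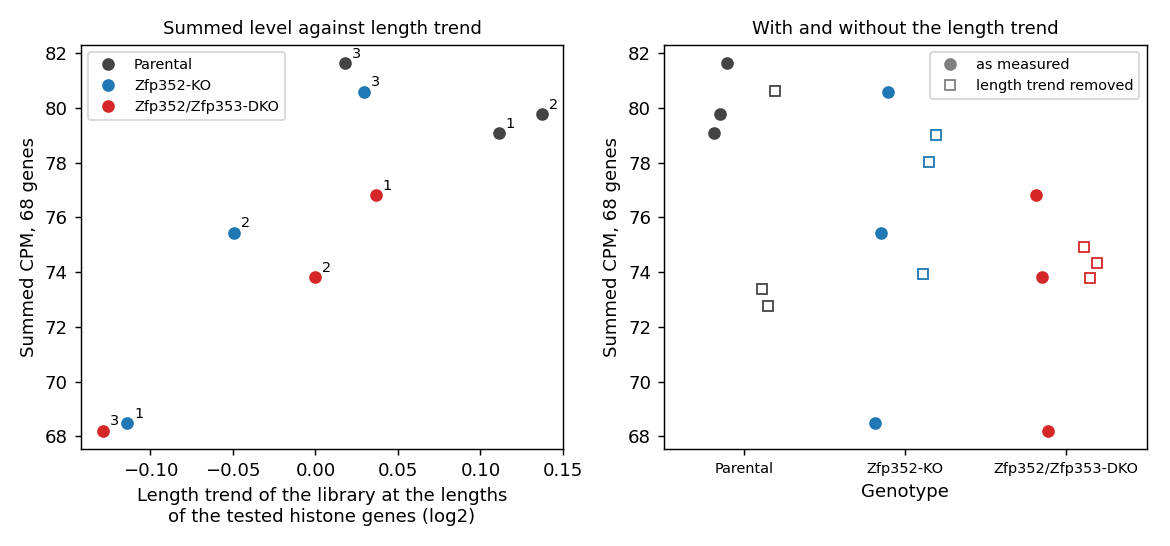
Left, summed CPM (scaled with TMM factors) of the 68 genes against the length trend of each library, in log2 units; numbers are replicates. Right, the same sums as measured (filled) and with the trend removed (open squares). As measured, Parental libraries lie at 79.1 to 81.6 CPM and double-knockout ones at 68.2 to 76.8; with the trend removed they are 72.7 to 80.6 and 73.8 to 74.9.

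Tests of single genes found 1 member that differed between genotypes. Of the 68 members, 48 had counts high enough to be tested, among 14300 genes in all. In Zfp352-KO against Parental, 0 of the 48 were called by the quasi-likelihood test of edgeR at a Benjamini-Hochberg adjusted p under 0.05. Of all tested genes 7.06% were called, 3.43% higher and 3.64% lower. DESeq2 also called 0, although it gave an adjusted p to only 6 members. At an unadjusted p under 0.05, 4 members were lower (Hist1h3h, Hist1h2bp, Hist1h3a and Hist1h2ap) and 0 higher, against 23.7% of all genes in either direction. The libraries did not overlap in CPM for 2 members lower (Hist1h2ap and Hist1h3d) and 0 higher, beside backgrounds of 14.4% and 13.0%. The median log2 fold change was -0.10 over members and -0.01 over all tested genes, and 31 of 48 members (64.6%) were below 0 against 52.0% of all genes.

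In Zfp352/Zfp353-DKO against Parental, 1 of 48 members was called, and it was lower. The background of lower calls was 4.82% of tested genes, that of higher calls 3.65% and that in either direction 8.47%. An unadjusted p under 0.05 was reached by 2 members, against 24.5% of all genes. The libraries did not overlap in CPM for 5 members lower (Hist1h3d, Hist1h2bb, Hist1h1d, Hist1h2ak and Hist1h2bg) and 0 higher, beside backgrounds of 15.0% and 13.1%. The median log2 fold change was -0.09 over members and 0.00 over all genes, and 32 of 48 members (66.7%) were below 0 against 50%. Both contrasts use the same Parental libraries, so they are not independent of each other.

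The single call was Hist1h3d, an H3 gene on chromosome 13 from 23575763 to 23576266. Its expected counts were 29.4, 18.9 and 16.3 in Parental, 13.4, 14.0 and 14.1 in single-knockout and 5.15, 11.6 and 8.57 in double-knockout libraries. In these counts, which are not scaled for depth, all double-knockout values lay below all others, and the 3 Zfp352-KO values lay between the 2 groups. In TPM the double-knockout values again lay below all others. Zfp352-KO and Parental overlapped in TPM, with 3.56 in Zfp352-KO 1 and 3.55 in Parental 3. In CPM these 2 libraries had 0.786 and 0.816. In the double knockout it fell by 1.21 on the log2 scale (SE 0.36, 95% interval -1.97 to -0.46, adjusted p = 0.0435 by edgeR's quasi-likelihood test), from 4.34 ± 1.16 to 1.88 ± 0.766 TPM. In Zfp352-KO the log2 fold change was -0.56 (SE 0.33, adjusted p = 0.320). Between the 2 edited genotypes it was -0.65 (SE 0.39, adjusted p = 0.862).

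The Hist1h3d call rested on few reads and did not hold in every setting. Leaving out Parental 1, Parental 2, Zfp352-KO 2, Zfp352/Zfp353-DKO 1 or Zfp352/Zfp353-DKO 3 moved the adjusted p from edgeR to 0.215, 0.0802, 0.0564, 0.137 and 0.0917. With the length trend removed its log2 fold change was -1.09 (adjusted p = 0.0656 by edgeR). On its GENCODE transcript it shares 22.1% of its 75-base windows with other genes, the lowest share among H3 members. That transcript has 1249 bases and the deposited one 504, so the share over the counted bases was not measured.

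Other members near the threshold had wide intervals. Hist1h3h, an H3 gene on chromosome 13 from 21717628 to 21718115, had 17.5, 69.3 and 38.9 counts in Parental, 16.1, 16.8 and 15.8 in single-knockout and 20.5, 37.5 and 11.7 in double-knockout libraries. Parental 2 was the highest of all, and Parental 1 lay within the range of the edited libraries. Its log2 fold change in Zfp352-KO was -1.29 (SE 0.43, adjusted p = 0.0726 by edgeR), which passed the threshold without Parental 1 (adjusted p = 0.0232), the Parental library where it was lowest, or without Zfp352/Zfp353-DKO 3 (0.0433). It shares 93.5% of its windows with other genes, so its counts were largely divided by estimate.

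Hist1h2bb, an H2B gene, had 14.3, 18 and 15.1 counts in Parental, 6.14, 14.5 and 20.8 in single-knockout and 6.33, 8.40 and 6.77 in double-knockout libraries. The double-knockout libraries lay below all Parental ones, whereas Zfp352-KO spanned both groups. Its log2 fold change in the double knockout was -1.08 (SE 0.41, adjusted p = 0.109 by edgeR). Hist1h1d, which encodes linker histone H1.3, had 2.75, 2.28 and 1.88 TPM in Parental, 1.62, 1.94 and 2.08 in single-knockout and 1.72, 1.54 and 1.54 in double-knockout libraries. The double-knockout values lay below the Parental ones, with a log2 fold change of -0.60 (SE 0.31, adjusted p = 0.243 by edgeR).

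The most abundant genes gave the tightest limits. Hist1h2bc had 29.1 ± 5.02 TPM in Parental, 26.9 ± 1.86 in single-knockout and 24.7 ± 4.37 in double-knockout cells, and its log2 fold changes were -0.07 (95% interval -0.34 to 0.21) and -0.10 (-0.37 to 0.18). Hist1h4i had 22.6 ± 2.29, 22.8 ± 4.2 and 20.6 ± 2.85 TPM, with log2 fold changes of -0.01 (-0.35 to 0.32) and -0.16 (-0.50 to 0.18). Differences beyond these bounds lie outside the 95% intervals, and smaller ones could not be detected at this depth.

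Hist1h2ap had 32.4, 33.1 and 41.0 TPM in Parental, 23.1, 33.8 and 30.5 in single-knockout and 26.8, 36.7 and 37.0 in double-knockout libraries. Its log2 fold change in Zfp352-KO was -0.31 (95% interval -0.62 to 0.00, adjusted p = 0.205 by edgeR). Hist1h2ai, the other abundant H2A gene, had 22.9, 16.7 and 17.3 TPM in Parental, 19.5, 23.2 and 30.5 in single-knockout and 17.8, 22.8 and 15.2 in double-knockout libraries, and its log2 fold change in Zfp352-KO was 0.33 (-0.06 to 0.73). These genes share 92.6% and 89.3% of their windows with other genes, and their estimates leaned in opposite directions. The H2A sum of the edited genotypes overlapped Parental in TPM but not in CPM.

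H1 genes, the type with the least sharing by GENCODE windows, showed no call. Hist1h1c, which encodes H1.2, had 5.42, 6.86 and 6.75 TPM in Parental, 6.21, 6.56 and 8.72 in single-knockout and 6.33, 5.34 and 7.05 in double-knockout libraries, and the groups overlapped. Its log2 fold changes were 0.14 (95% interval -0.28 to 0.55) and -0.06 (-0.48 to 0.36). Hist1h1a, which encodes H1.1 and shared no window with another gene, had log2 fold changes of -0.05 (-0.63 to 0.53) and 0.03 (-0.54 to 0.61).

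Across all tested members the 95% interval stayed within a 2-fold change for 28 of 48 in the single knockout and 23 of 48 in the double knockout. The median SE was 0.35 on the log2 scale in both contrasts, against 0.08 over all tested genes. A member missing the threshold is therefore not shown to be the same in the compared genotypes.

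**Figure D4:**
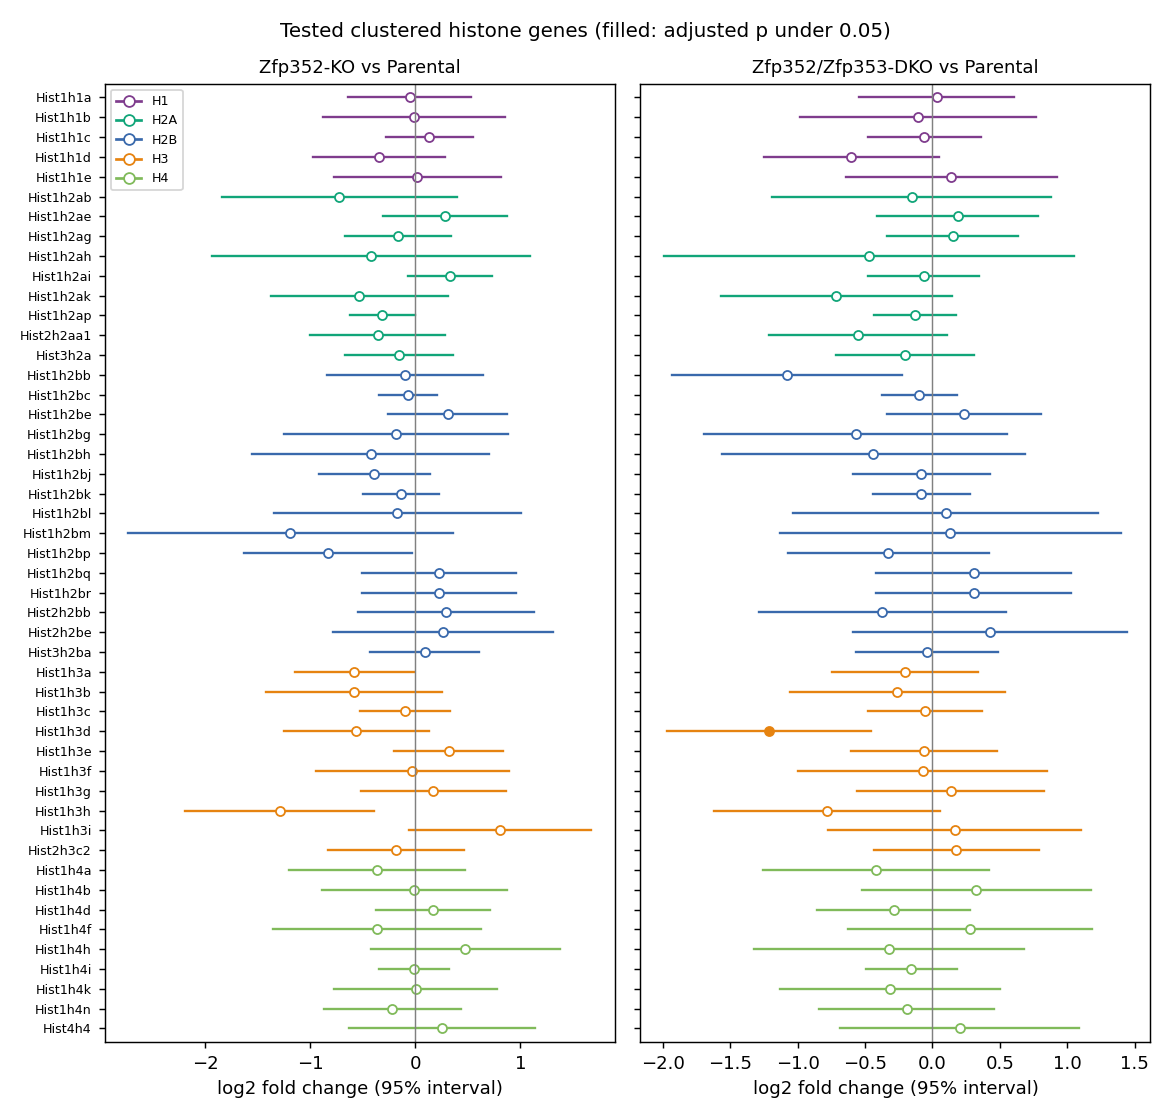
Log2 fold change with 95% interval (horizontal axis) for each of the 48 tested clustered histone genes, in Zfp352-KO (left) and Zfp352/Zfp353-DKO (right) against Parental, coloured by histone type; the 2 panels have different scales. Hist1h3d at -1.21 is the single filled point, and most intervals cross 0.

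Between Zfp352/Zfp353-DKO and Zfp352-KO, 0 of 48 members were called by edgeR. Of all tested genes 0.105% were called, 0.014% higher and 0.0909% lower. DESeq2 called 0 of the 4 members it gave an adjusted p. An unadjusted p under 0.05 was reached by 1 member, Hist1h2bb, against 6.43% of all genes. The libraries did not overlap in CPM for 2 members lower (Hist1h4d and Hist1h3d) and 1 higher (Hist2h3c2), beside backgrounds of 5.6% and 5.49%.

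Calls among genes that make or handle histone mRNA and protein are given beside the shares over all tested genes. Slbp, which encodes the stem-loop binding protein, had a log2 fold change of 0.03 (SE 0.05) in the single and 0.02 (SE 0.05) in the double knockout. Npat and Casp8ap2, which encode factors of the histone locus body where these genes are transcribed, had 0.18 (SE 0.08) and 0.19 (SE 0.07) in Zfp352-KO, with adjusted p = 0.164 and 0.0909 by edgeR. Of 30 genes for histone transcription and mRNA processing, 2 were lower and 0 higher in each contrast with Parental. Over all tested genes 3.64% were lower and 3.43% higher in Zfp352-KO, and 4.82% and 3.65% in the double knockout. Ccne1, the cyclin E1 gene, was lower in both, by log2 fold changes of -0.27 and -0.26 (adjusted p = 0.00185 and 0.00176 by edgeR). The others were the Sm-protein genes Snrpg in Zfp352-KO (-0.21) and Snrpd3 in the double knockout (-0.18).

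Of 27 histone chaperone genes, 2 were higher and 0 lower in each contrast: Ubn2, of the HIRA complex, in both (0.40 and 0.36), Atrx, whose product places H3.3 together with DAXX, in Zfp352-KO (0.33) and Mms22l in the double knockout (0.17). Of 40 S-phase genes, 1 (Pole, the DNA polymerase epsilon gene, 0.20) was higher in Zfp352-KO, and in the double knockout Pola1, of DNA polymerase alpha, was higher (0.19), and Dut, the dUTPase gene (-0.22), and Gins4, of the replicative helicase (-0.18), were lower. Median log2 fold changes of these 3 lists lay between -0.02 and 0.02, beside -0.01 and 0.00 over all genes.

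The 11 tested replacement-variant genes had a median log2 fold change of -0.16 in the single knockout, where 2 were lower, and -0.04 in the double knockout, where 1 was. Beside this, 3.64% and 4.82% of all tested genes were lower, with medians of -0.01 and 0.00. H2afj, an H2A variant gene, was lower in both contrasts, at -0.40 (adjusted p = 0.00406) and -0.32 (adjusted p = 0.0131 by edgeR). It had 32.7, 28.7 and 30.8 TPM in Parental, 23.5, 23.7 and 24.9 in single-knockout and 23.2, 27.9 and 24.9 in double-knockout libraries. H1fx, the linker histone H1.10 gene, was lower in Zfp352-KO (-0.53, adjusted p = 0.000903 by edgeR), whereas its value in the double knockout was -0.17 (adjusted p = 0.201). The 2 edited genotypes did not differ past the threshold for H1fx (0.36, adjusted p = 0.155 by edgeR). In the single knockout H1f0, H2afv, H2afx and Cenpa had log2 fold changes of -0.22, -0.16, -0.16 and -0.16, with adjusted p from 0.0532 to 0.0742 by edgeR. The most abundant variant genes H2afz and H3f3b had log2 fold changes of -0.04 and -0.05 in Zfp352-KO and -0.03 and 0.00 in the double knockout, each with an SE of 0.05 or less.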

How the data were processed

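Each library's deposited table gave, per gene, an expected count, TPM and FPKM, per the file headers. The authors' expected count is an RSEM estimate that divides shared reads. The deposited TPM is normalized for length and depth, and the deposited FPKM was not used. RSEM 1.3.3, STAR 2.7.8a and Trim Galore 0.6.6 were used with build mm10, per the submitters' processing notes. Not given in the sources used here are the annotation release and strand setting.

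After rounding, expected counts entered edgeR 4.0.16 under R 4.3.3 (TMM factors 0.992 to 1.01, filterByExpr, two-sided quasi-likelihood test, all 9 libraries in 1 fit with 6 residual degrees of freedom). Calls needed an adjusted p under 0.05 (Benjamini-Hochberg, 14300 genes). The script was tested on simulated data. Alternatives used DESeq2 1.42.0, limma 3.58.1, other filters and scalings, a length-trend offset, a replicate block and each library left out. Type sums are descriptions with no test. Groups did not overlap when all CPM values of 1 lay below all of the other.

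The histone genes as a subject, and the lists, were chosen with earlier results of these data known; membership then followed from the gene names. Removing the length trend was planned for the gene tests and added after seeing the data for the sums. Named members were those called in any comparison, the 3 with the highest TPM in each type, and those nearest the threshold. Members outside this rule (Hist1h2bp, Hist1h2ak, Hist1h2bg, Hist2h3c2) were named after their values were seen. Gene positions came from RefSeq (GRCm38.p6, matched for 67 members), and stem-loops and shared 75-base windows from GENCODE M21 transcripts (68 members).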

Additional observations from a re-analysis of the deposited data

How the results depend on the processing

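Most results stayed near their main value or on their side of the threshold. Of the member counts and type sums under alternatives, 259 stayed (sums within the pooled SD of the main log2 ratio) and 23 moved. Of single named members 976 kept their side, 4 gained a call, 8 lost one and 0 changed sign where a call was involved. Sign changes of uncalled values were counted as unchanged. Hist1h1a in Zfp352-KO, for example, ran from -0.15 to 0.13 as libraries were left out. The count of lower members in Zfp352-KO (0) became 1, Hist1h3h, with no filter, with only the 6 libraries compared and at an adjusted p under 0.10, and leaving out each library gave 0 to 1. The count of higher members there (0) became 1, Hist1h2an, with no filter. The count of lower members in Zfp352/Zfp353-DKO (1) became 0 with DESeq2 (27 members with an adjusted p), with a CPM of at least 1 in 3 libraries (26 tested, Hist1h3d not among them), with only the 6 libraries compared (Hist1h3d adjusted p = 0.0548), and with the length trend removed. It became 2 with no filter (Hist1h2ac and Hist1h3d), and leaving out each library gave 0 to 2, the 2 being Hist1h3d and Hist2h2aa1 without Zfp352/Zfp353-DKO 2. Causes were not tested. With the replicate block the count was 0 (Hist1h3d adjusted p = 0.0717 by edgeR). Same-numbered libraries of different genotypes did not deviate together (correlations -0.0767 to 0.106), and the labels do not say whether they share more than a number. With the length trend removed, log2 ratios of sums were 0.02 and 0.00 for H2B in Zfp352-KO and the double knockout, -0.04 for H3 in Zfp352-KO, and 0.03 and -0.02 for all members. Others then stood away from 0: 0.13 for H4 and 0.09 for H1 in Zfp352-KO, and -0.07 for H3 and -0.06 for H2A in the double knockout. Depth limits the result: the 68 genes had 1133 to 1702 expected counts per library.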
